A study of Mus musculus with 7 samples.

Results

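The nuclear-encoded subunits of the mitochondrial respiratory chain were examined in uterine tissue of mice after infusion of the chemokine CXCL12 into the uterine cavity. Members were chosen by gene symbol alone (Nduf genes of the a, b, c, s and v series, Sdha to Sdhd, Uqcr genes, Cox4 to Cox8 genes and Atp5 genes), which gave 84 of the 23282 rows of each table. Of these, 37 belonged by symbol to complex I, 4 to complex II, 8 to complex III, 18 to complex IV and 17 to complex V. The grouping by symbol is not exact: Ndufa4 is now assigned to complex IV, and Atp5s and Atp5sl are not subunits of the ATP synthase. Cox7a2l is known as an assembly factor for supercomplexes of complexes III and IV. Protein complexes and supercomplexes were not measured. None of the 13 subunits encoded by the mitochondrial genome was found among the rows by symbol, so they could not be analysed.

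The chain sits in the inner mitochondrial membrane. Complexes I (NADH dehydrogenase) and II (succinate dehydrogenase) pass electrons to ubiquinone, complex III (cytochrome bc1) passes them on to cytochrome c, and complex IV (cytochrome c oxidase) hands them to oxygen. Complexes I, III and IV pump protons, and complex V, the ATP synthase, uses the proton gradient to make ATP. Most subunits are expressed in nearly every cell, and a few complex IV subunits have a second gene used mainly in muscle, lung or testis. Nuclear-encoded subunits are known for promoters that bind NRF1, GABPA, ESRRA and YY1.

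C57BL/6 female mice of 6 weeks received 100 ng of recombinant human CXCL12 in 30 µl of saline into one uterine horn and saline into the other. The libraries were 2 labelled saline-treated, 2 CXCL12-treated Day 3 and 3 CXCL12-treated Day 8. For the saline horns no day is given in the labels, which also do not tie horns to animals and do not state the stage of the estrous cycle. Nothing in them says that replicates came from separate animals, so the p-values below measure the spread between these libraries. RNA was read from the 3′ end of transcripts by QuantSeq. The saline-treated libraries held 6908790 and 9491691 counts, Day 3 replicate 2 held 9968909, and the Day 8 libraries held 9601312, 12308982 and 9941132. Day 3 replicate 1 was deposited as log2-transformed normalized values, so its depth cannot be read from its total. In bulk tissue, fewer cells of a type and less RNA per cell cannot be told apart.

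All 5 uterine markers examined (Esr1, Pgr, Hoxa10, Hoxa11 and Emx2) were expressed in every library, with summed levels between 894.4 CPM (counts scaled by library size) in Day 8 replicate 2 and 1787 CPM in saline replicate 1. Some libraries stood apart from their groups. Pearson's r over 14850 genes was 0.974 between the Day 3 libraries and 0.903 between the saline horns. For Day 8 replicate 1 it was 0.892 and 0.894 with the other Day 8 libraries, against 0.947 and 0.948 with those of Day 3. With saline replicate 2 it was nearly as high, at 0.942. Saline replicate 2 itself stood at 0.948 and 0.941 with the Day 3 libraries, above its value with the other saline horn. The deposited table of Day 8 replicate 1 has Day 3 in the name, and its label was followed here. The ribosomal precursor Rn45s took 13.0% of its counts, against 9.36% to 10.4% in the other libraries. The table of saline replicate 1 ends without the 2028 empty lines found in each of the other 6. Medians of the members, and many differences of named genes, are therefore given also without saline replicate 1, Day 8 replicate 1 or both. Markers of other cells also differed between libraries. The steroid-producing cells of the ovary were marked by Cyp11a1, Star, Hsd3b1, Inhba and Cyp17a1. These genes gave a summed 3490 CPM in Day 8 replicate 2 and 1039 CPM in saline replicate 2, against 7.89 to 178.3 CPM in the other 5 libraries. Hsd3b1 was the most abundant of them in Day 8 replicate 2 and saline replicate 2. At Day 3 and in Day 8 replicate 3 it was at 0.402 CPM or less, below Star. The 6 white adipocyte markers were led on average by Fabp4. They summed to 2664 CPM in saline replicate 2, 2709 CPM in Day 3 replicate 1 and 930.7 CPM in saline replicate 1. The sum was 286.7 CPM in Day 3 replicate 2 and 202.6 to 350.8 CPM at Day 8. Every Day 8 library was thus below both saline-treated ones. Cfd was above Fabp4 in saline replicate 1 (540.0 against 235.4 CPM) and, by less, in Day 8 replicates 2 and 3. The 8 smooth muscle markers, led by Acta2, summed to 1824 CPM in Day 8 replicate 1 and 1854 CPM in saline replicate 2 against 3104 to 4526 CPM elsewhere. The 4 leukocyte markers summed to 327.8 and 331.2 CPM in saline against 81.6 to 254.4 CPM elsewhere. Lyz2, the highest of them on average, did not follow the sum. It stood at 35.3 and 202.5 CPM in saline and at 32.4 to 131.3 CPM elsewhere. In saline replicate 1 it was below Cd68, at 79.0 CPM. A brown fat list of 7 genes, which holds Cox7a1 and Cox8b and is led by Dio2, summed to 84.6 and 103.5 CPM in Day 8 replicates 2 and 3 against 705.4 to 1258 CPM elsewhere. Most of each sum was Dio2, at 68.9 and 89.3 CPM in those libraries and 687.9 to 1240 CPM elsewhere. The median centred value of the list was 0.52 in Day 8 replicate 2 and -0.80 in replicate 3, against -0.02 to 0.93 elsewhere. The 5 epithelial markers were led on average by Krt19, though Krt18 was above it in Day 8 replicates 2 and 3. Their highest median centred value was 0.40 in Day 8 replicate 1, the highest library for the members too. It was 0.35 and 0.39 at Day 3 and 0.31 in saline replicate 2. Their lowest values were in saline replicate 1 (-0.10) and in Day 8 replicates 2 (-0.71) and 3 (-0.14). Their summed level was 406.7 CPM in Day 8 replicate 2 and between 716.3 and 925.1 CPM in the others, with none of the 5 at 0. The 4 ciliated oviduct markers, led by Ovgp1, summed to 286.5 and 237.7 CPM in Day 8 replicates 1 and 3, each with 1 marker at 0, against 636.4 to 757.3 CPM elsewhere. The 4 endothelial markers, led by Pecam1 and none at 0, summed to 118.6 CPM in Day 8 replicate 1, the library where the members were highest, and to 145.7 to 241.1 CPM elsewhere. The part of these cells in the results below was not tested.

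Words bound by these factors were looked for in the promoters of the members, and their shares are given beside those of all promoters. RefSeq windows from 250 bases before to 50 bases after the start of transcription (build GRCm38.p6) were at hand for 69 members and for 27025 genes of all kinds, and both strands were searched. The 10-base palindrome of NRF1, which is the first run of capitals in the Cox6a1 promoter, lay in 7.25% of the member promoters and in 1.07% of all promoters. With its 6th base open, a set that includes the first, it lay in 24.6% of member and 5.19% of all promoters. The ETS core CCGGAAG, bound by GABPA among others, lay in 23.2% against 9.93%, and its longer form ACCGGAAGT in 1.45% against 1.21%. The ESRRA word TCAAGGTCA lay in 2.90% against 0.466%, and an 11-base YY1 word in 7.25% against 0.755%. These are matches of letters and not sites shown to be bound. 3 promoters are printed 5′ to 3′ on the minus strand, each as the 250 bases before the start, with the matched words in capitals. Cox6a1 carries the NRF1 palindrome, its form with the open base and an ETS core, Atp5g3 the ESRRA word, and Uqcrh an ETS core, with the ETS and ESRRA words read on the opposite strand. The start used for Atp5g3 lies inside the annotated span of the gene. They are shown as a promoter with several words (Cox6a1), one with the word that is rarest over all promoters (Atp5g3), and that of a member which hardly followed the others across libraries (Uqcrh).
Cox6a1, chr5:115348959-115349208: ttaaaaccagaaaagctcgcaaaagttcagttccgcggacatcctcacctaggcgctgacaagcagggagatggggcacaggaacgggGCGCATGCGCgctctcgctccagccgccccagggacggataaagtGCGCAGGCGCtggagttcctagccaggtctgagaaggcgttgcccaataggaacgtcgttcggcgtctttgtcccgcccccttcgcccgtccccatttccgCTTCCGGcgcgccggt
Atp5g3, chr2:73911327-73911576: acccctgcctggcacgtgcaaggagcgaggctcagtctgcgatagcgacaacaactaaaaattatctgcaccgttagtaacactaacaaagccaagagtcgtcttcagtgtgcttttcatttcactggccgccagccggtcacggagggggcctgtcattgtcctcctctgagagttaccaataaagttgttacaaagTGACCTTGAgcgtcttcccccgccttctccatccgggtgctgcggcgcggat
Uqcrh, chr4:116075071-116075320: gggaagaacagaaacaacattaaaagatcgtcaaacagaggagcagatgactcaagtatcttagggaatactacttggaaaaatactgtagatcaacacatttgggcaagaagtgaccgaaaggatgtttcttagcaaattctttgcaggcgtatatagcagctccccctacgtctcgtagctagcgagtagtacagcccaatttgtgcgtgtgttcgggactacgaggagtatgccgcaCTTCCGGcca

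Member transcripts moved together across libraries. Libraries within the saline and Day 8 groups differed as much as the groups did, whereas those of Day 3 lay close together. All members together took 1.60% and 2.30% of the counts in the saline-treated libraries, 2.58% and 2.46% at Day 3, and 2.72%, 2.07% and 1.92% at Day 8. Saline replicate 1 was the lowest library and Day 8 replicate 1 the highest, and saline replicate 2 lay inside the range of the Day 8 libraries. The 82 members expressed highly enough to be tested were then centred gene by gene on the mean of the 7 libraries, on a log2 scale. Their median was -0.46 and -0.01 in the saline-treated libraries, 0.20 and 0.17 at Day 3, and 0.39, -0.02 and -0.18 at Day 8. Saline replicate 1 was the lowest of the 7 libraries for 49 of the 82 members, where it was lowest for 23.9% of all genes, and Day 8 replicate 1 was the highest for 54 members, where it was highest for 16.6% of all genes.

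**Figure D1:**
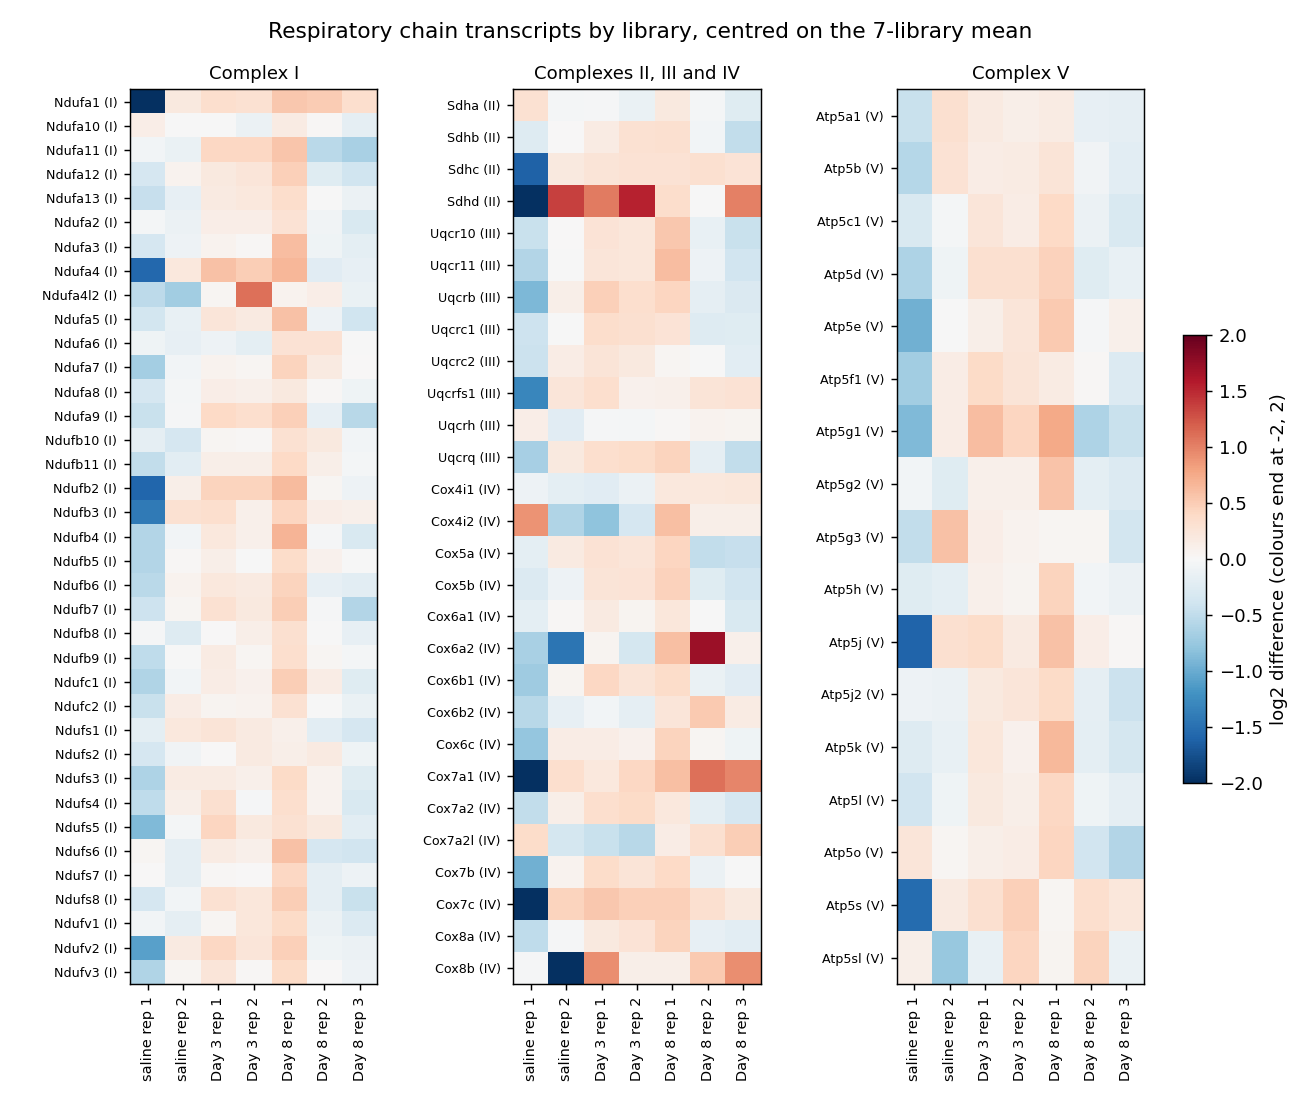
Heat map of the 82 tested members (rows, with the complex by symbol in brackets) in 7 libraries (columns). Colour is the log2 difference of a quantile-normalized value from the gene's mean over the 7 libraries, with red above and blue below the mean; the column of saline replicate 1 is mostly blue, the lowest library for 49 members, and the column of Day 8 replicate 1 mostly red, the highest for 54.

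By this centred median, saline replicate 1 was the lowest library and Day 8 replicate 1 the highest in all 5 complexes, for complex II by 0.2992 against 0.2984 in Day 3 replicate 2, and the order of the others differed between complexes. By share of counts Day 8 replicate 1 was not the highest for complex II, with 0.0688% against 0.0787% in Day 3 replicate 2, nor for complex III, with 0.305% against 0.316% in Day 3 replicate 1. In saline replicate 1 the median centred value was -0.45 for complex I, -0.94 for complex II, -0.52 for complex III, -0.50 for complex IV and -0.44 for complex V. In Day 8 replicate 1 the same medians were 0.40, 0.30, 0.35, 0.42 and 0.41. Day 8 replicates 2 and 3 lay near the mean of the 7 libraries for complex IV, at 0.08 and 0.04, and below it for complex III, at -0.12 and -0.26, and complex V, at -0.08 and -0.21. Both Day 3 libraries were above the mean for all 5 complexes.

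**Figure D2:**
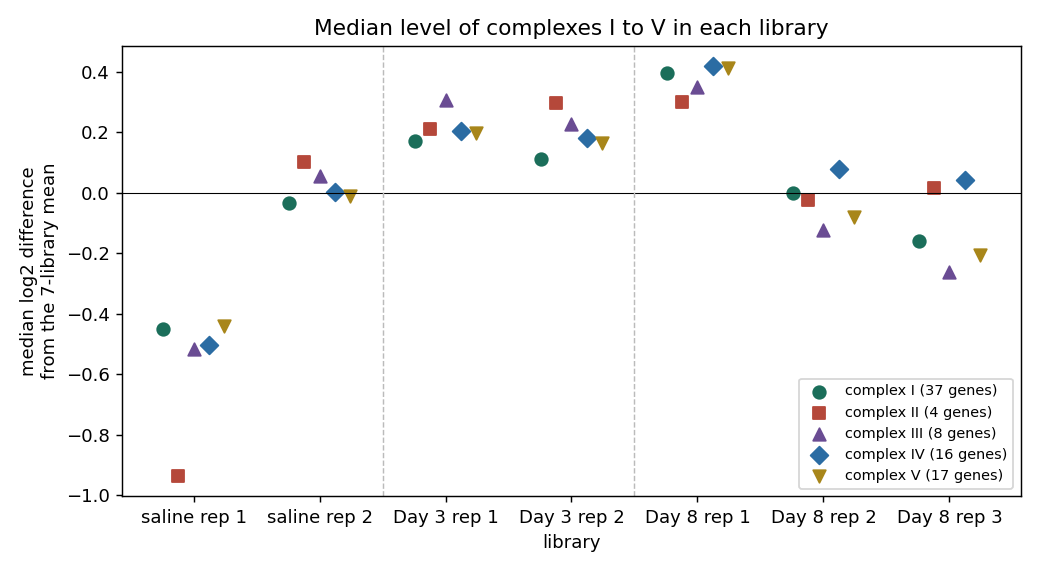
Median log2 difference from the 7-library mean (vertical axis) for complexes I to V in each library (horizontal axis), with one symbol for each complex and dashed lines between groups. The Day 3 points lie between 0.11 and 0.31, whereas the Day 8 points of replicate 1 lie between 0.30 and 0.42 and those of replicates 2 and 3 between -0.26 and 0.08.

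CXCL12 Day 3 was compared with saline on the log2 scale by limma. Members were higher at Day 3 as a group: 75 of 82 had a log2 difference above 0, where 50.6% of all genes did, and their median difference was 0.43 against 0.01 for all genes. The median was 0.41 for complex I, 0.67 for complex II, 0.54 for complex III, 0.47 for complex IV and 0.37 for complex V. In 56 members both Day 3 libraries lay above both saline-treated libraries, which was so for 24.0% of all genes tested, and these were 27 members of complex I, 2 of complex II, 6 of complex III, 10 of complex IV and 11 of complex V. On that quantile-normalized scale Ndufa10 and Cox7a2l alone lay below in both, where 22.5% of all genes did. No member passed a Benjamini-Hochberg adjusted p of 0.1, nor did any gene, with 1095 genes (7.37% of those tested) and 1 member at an unadjusted P of 0.05. The less strict limits were a change of at least 2-fold together with P below 0.05 before adjustment. One member, Ndufa4l2, passed both, and was higher, where 4.52% of all genes passed in either direction and 1.9% as higher. Of the marker lists, 4 of 5 ovary steroidogenic genes (median -7.19) and 2 of 4 leukocyte genes (median -1.24) passed as lower. Actg2 (smooth muscle, 1.54), Acta1 (skeletal or heart muscle, 1.01) and Cidea (brown fat, 2.48) passed as higher. Whether such cells had a part in the Day 3 levels of the members was not tested. Without saline replicate 1 the median of the members was 0.19, and those of complexes I to V were 0.18, 0.03, 0.21, 0.09 and 0.23. Without saline replicate 2, which leaves replicate 1 as the only control, 20 of 82 members passed, where 19.2% of all genes did in either direction.

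Among the complex III and V members, Uqcrb, which binds ubiquinone in complex III, was measured at 153.9 and 303.3 CPM in the saline-treated libraries, 392.8 and 352.6 CPM at Day 3, and 343.4, 225.1 and 210.9 CPM at Day 8. Both Day 3 libraries were above the saline-treated ones, and Day 8 replicates 2 and 3 fell between the controls. The Day 3 difference was 0.80 ± 0.37 (log2, SE; limma adjusted p = 0.62), and 0.30 without saline replicate 1. Atp5d, the delta subunit of the ATP synthase stalk, stood at 128.4 and 181.2 CPM in saline, 231.0 and 230.02 CPM at Day 3, and 230.9, 144.1 and 155.6 CPM at Day 8. Here too both Day 3 libraries were above both saline-treated ones, with Day 8 replicate 1 at the Day 3 level and a Day 3 difference of 0.68 ± 0.30 (limma adjusted p = 0.62) that was 0.42 without saline replicate 1. Cox7b, a small subunit of complex IV, had 273.3 and 561.5 CPM in saline, 698.4 and 630.0 CPM at Day 3 and 729.6, 468.4 and 506.0 CPM at Day 8, a Day 3 difference of 0.76 ± 0.35 (limma adjusted p = 0.62) that was 0.25 without saline replicate 1. In Cox7b too, saline replicate 1 was the lowest library and saline replicate 2 lay among the Day 8 libraries.

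Ndufa4l2, a paralogue of Ndufa4 known as a target of hypoxia-inducible factor and as a pericyte gene, was measured at 3.33 and 2.84 CPM in saline, 3.54 and 8.13 CPM at Day 3, and 3.44, 4.71 and 3.52 CPM at Day 8. Day 3 replicate 2 alone was high. The difference of 1.18 ± 0.48 (limma, unadjusted P = 0.0391, adjusted p = 0.62) became 0.63 without that library. The other pericyte markers, led on average by Rgs5, did not set that library apart. The list of 8, which holds Ndufa4l2, summed to 127.1 CPM there, between 85.8 and 270.2 CPM in the other 6. Its partner Ndufa4 had 100.3 and 322.8 CPM in saline, 427.2 and 389.2 CPM at Day 3, and 406.4, 218.05 and 231.5 CPM at Day 8, with a Day 3 difference of 1.22 ± 0.54 (limma adjusted p = 0.62) that was 0.34 without saline replicate 1. Saline replicate 1 was far below every other library for Ndufa4, one of 10 members with this pattern described below.

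For Day 8 against saline, edgeR was run on the 6 libraries with counts. Member levels were on balance higher at Day 8, with 77 of 82 differences above 0, where 49.3% of all genes were above 0, and a median of 0.44 against -0.01 for all genes. The median was 0.41 for complex I, 0.16 for complex II, 0.42 for complex III, 0.61 for complex IV and 0.41 for complex V. On the quantile-normalized scale used for Day 3, limma gave 0.29 for all members, 0.52 for complex II and 0.18 for complex III, so the medians at Day 8 and Day 3 are not on one scale. The median over all members rested on the libraries that stood apart: it was 0.14 without saline replicate 1, 0.15 without Day 8 replicate 1 and -0.09 without both. Without both, complex IV stood at 0.03, complex I at -0.08, complex V at -0.12, complex II at -0.20 and complex III at -0.24. Scaling by library totals alone moved the median of all genes to -0.27, that of the members to 0.16 and that of complex II to -0.07. Such scaling shifts all genes of a library alike, so it cannot test the distance of the members from all genes. On TMM-scaled CPM, every Day 8 library was above both saline-treated libraries in 18 members, where this held for 9.17% of all genes. The reverse was so for 0 members and 10.1% of all genes. These counts rested on the TMM factors, which lowered the saline values and raised those of Day 8. On CPM by library totals, Day 8 stayed wholly above saline only in Ndufa4l2, Ndufa6, Ndufb11, Uqcrh, Cox4i1, Cox6a2 and Cox6b2. On that scale Day 8 was wholly below saline in Ndufa10 and Ndufs1, and the shares of all genes are not given here.

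No gene passed the adjusted p of 0.1 in edgeR, with 658 genes at an unadjusted P of 0.05, and DESeq2 called 49 genes. A single member, Cox6a2, passed the limits of 2-fold and P 0.05, where 2.94% of all genes did so in either direction. Without saline replicate 2, with saline replicate 1 as the only control, the count was 17 of 82, where 1527 of 15277 genes (10%) passed, and without Day 8 replicate 2 it was 0. By the same limits all 6 white adipocyte markers were lower at Day 8, with a median of -2.24 (-2.61 without both libraries that stood apart), and Cfd, of the smallest P, differed by -2.27 ± 0.36 (edgeR unadjusted P = 0.000398, adjusted p = 0.96). Of the other marker lists, 2 of 8 smooth muscle genes passed as higher, 1 of 4 leukocyte genes as lower and, of the muscle list, Cox6a2 itself. Whether the share of such cells had a part in the Day 8 levels of the members was not tested. Cox6a2, the heart and skeletal muscle form of a complex IV subunit, was read 10 and 7 times in saline and 22, 79 and 18 times at Day 8, or 1.45 and 0.74 CPM against 2.29, 6.42 and 1.81 CPM. Its difference of 1.95 ± 0.81 (log2, SE; edgeR unadjusted P = 0.0474, adjusted p = 0.96) rested on Day 8 replicate 2 and was 1.22 without it. Skeletal and heart muscle markers, a list of 10 led by Acta1 that includes Cox6a2, summed to 44.3 CPM in that library against 44.7 to 94.0 CPM in the others, and Myh4 was at 0 in all 7 libraries. Most of each sum was Acta1, at 30.5 CPM in Day 8 replicate 2 and 38.5 to 85.3 CPM elsewhere. The median centred value of the list was -0.0009 in Day 8 replicate 2, inside the range of the others (-0.67 to 0.49).

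Complex I held the member with the smallest P in this comparison. Ndufa6, an accessory subunit of complex I (chr15:82350139-82354291 in GRCm38.p6), was measured at 600.8 and 608.4 CPM in saline, 692.2 and 628.5 CPM at Day 3 and 880.4, 836.1 and 725.3 CPM at Day 8. Every Day 8 library was above every other library. The difference from saline was 0.69 ± 0.28 (edgeR unadjusted P = 0.041, adjusted p = 0.96). The difference was 0.43 by library totals alone (edgeR unadjusted P = 0.121) and 0.31 on quantile-normalized values (limma unadjusted P = 0.142). Its unadjusted P was also above 0.05 when any 1 saline-treated or Day 8 library was left out, at 0.0981 without saline replicate 1 (edgeR). With both libraries that stood apart left out, it was 0.0158 (edgeR) at a difference of 0.52. Ndufa6 and Cox6a2 were the 2 members with an unadjusted P of 0.05, where 4.28% of all genes reached it.

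Some members did not follow the common order of libraries. Cox4i1, the ubiquitous form of subunit 4 of cytochrome c oxidase (chr8:120668225-120674209), had 395.1 and 383.1 CPM in saline, 382.4 and 399.7 CPM at Day 3 and 473.7, 482.8 and 488.6 CPM at Day 8. The 3 Day 8 libraries agreed closely, Day 8 replicate 1 included, and lay above all others, with a mean of 481.7 ± 7.51 CPM (SD, n = 3) against 389.1 ± 8.54 CPM (SD, n = 2) in saline. The difference was 0.57 ± 0.26 against saline (edgeR adjusted p = 0.96) and 0.40 ± 0.17 against Day 3 (limma adjusted p = 0.69), on different scales. On the quantile-normalized log2 scale the means of Cox4i1 were 11.87 in saline, 11.85 at Day 3 and 12.25 at Day 8, a gap from saline smaller than 0.57. Uqcrh, the hinge protein of complex III that contacts cytochrome c, had 944.2 and 803.1 CPM in saline, 994.6 and 945.6 CPM at Day 3 and 1015, 1011 and 992.1 CPM at Day 8. It was not low in saline replicate 1, which was its highest library on the quantile-normalized scale, at 13.33. Its difference at Day 8 was 0.47 ± 0.26 (edgeR adjusted p = 0.96), and 0.10 on quantile-normalized values (limma unadjusted P = 0.603).

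Cox7a2l (chr17:83501917-83514333) showed the opposite order to most members between Day 3 and Day 8. It stood at 525.6 and 371.4 CPM in saline, 349.4 and 321.6 CPM at Day 3 and 487.5, 567.9 and 672.5 CPM at Day 8. Both Day 3 libraries were the lowest of the 7, and Day 8 replicate 1, highest for most members, was the lowest Day 8 library here. Day 8 exceeded Day 3 by 0.82 ± 0.25 (limma unadjusted P = 0.0114, adjusted p = 0.69), a value between 0.72 and 0.90 when any 1 library was left out.

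**Figure D3:**
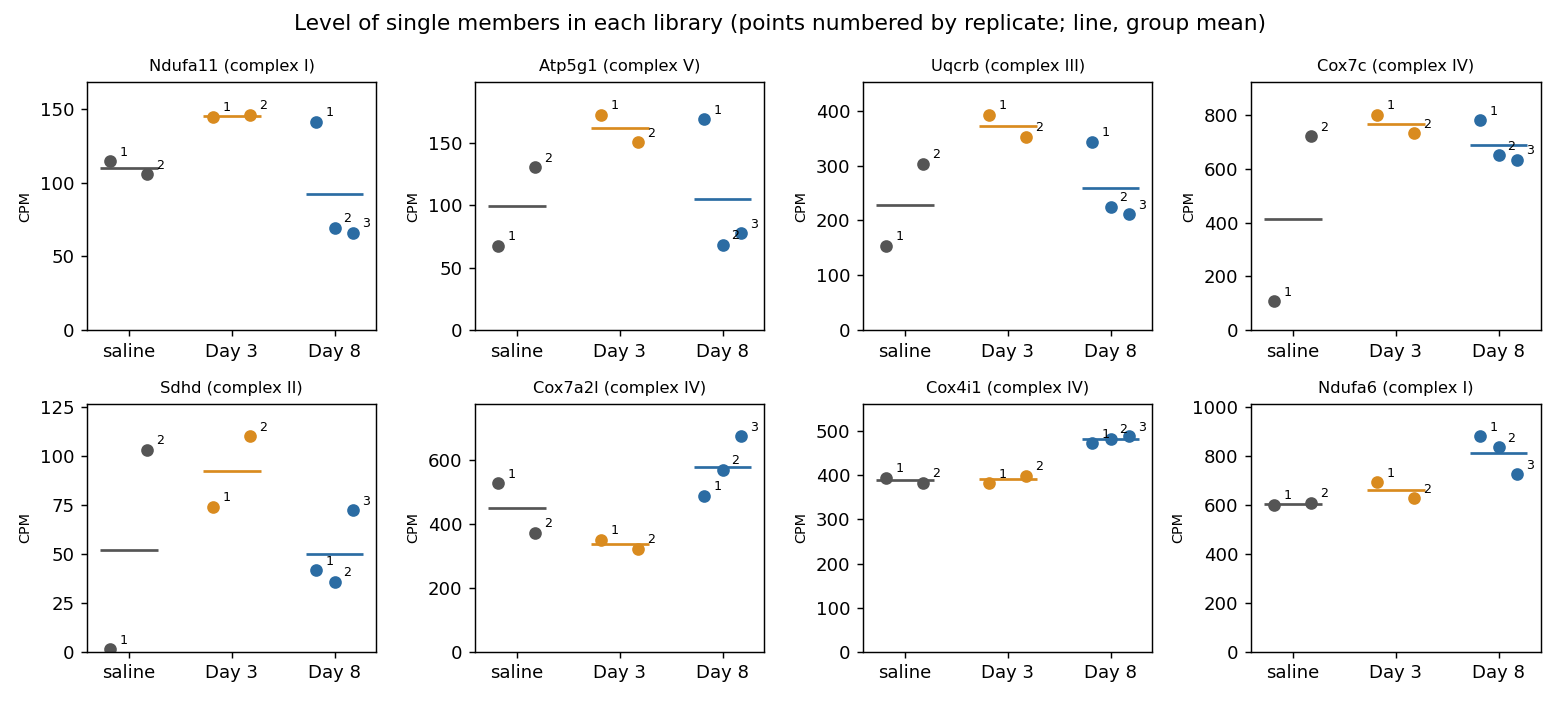
CPM (vertical axes, from 0) of 8 members in each library, with points numbered by replicate and a line at the group mean. Ndufa11, Atp5g1 and Uqcrb show Day 8 replicate 1 near the Day 3 libraries, Cox7c and Sdhd show saline replicate 1 far below saline replicate 2, and Cox7a2l, Cox4i1 and Ndufa6 show every Day 8 library above both Day 3 libraries.

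Between Day 8 and Day 3, member levels were lower at Day 8 in 58 of 82 and higher in 24, where 50.1% of all genes were higher, and the median difference was -0.14. By complex it was -0.07 for complex I, -0.15 for complex II, -0.28 for complex III, -0.08 for complex IV and -0.20 for complex V. Without Day 8 replicate 1 the median over all members was -0.29, and those of complexes I to V were -0.26, -0.29, -0.51, -0.18 and -0.32. With each library left out in turn, the median ranged up to -0.01 for all members and up to 0.05 for complex I. No member passed the limits of 2-fold and P 0.05, and 4.67% of all genes did in either direction. Cox7a2l alone had an unadjusted P of 0.05, where 7.21% of all genes did. The Day 3 and Day 8 comparisons with saline share the saline-treated libraries, and the comparisons above are therefore not independent of each other.

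In 66 members Day 8 replicate 1 was above both other Day 8 libraries, where 42.4% of all genes were, and in 6 (Uqcrfs1, Uqcrh, Cox7a1, Cox7a2l, Cox8b and Atp5s) it was below both, where 38.4% of all genes were. Among the members with a wide spread inside the Day 8 group were Atp5g1 and Ndufa11, chosen here after their values were seen. Atp5g1, one of 3 genes for the c ring of the ATP synthase, had 67.6 and 130.6 CPM in saline, 172.6 and 150.4 CPM at Day 3 and 169.1, 68.3 and 77.5 CPM at Day 8. Ndufa11, a membrane subunit of complex I, had 114.6 and 106.0 CPM in saline, 145.03 and 146.3 CPM at Day 3 and 141.5, 69.5 and 66.0 CPM at Day 8. In both genes Day 8 replicate 1 lay at the level of Day 3, and replicates 2 and 3 lay at 77.5 CPM or less. Without Day 8 replicate 1, these were the 2 members of 82 past the limits of 2-fold and P 0.05 between Day 8 and Day 3, where 11.3% of all genes passed.

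On the quantile-normalized scale, 9 members had every Day 8 library above both Day 3 libraries, where 15.7% of all genes were, and 6 of the 9 were complex IV genes (Cox4i1, Cox4i2, Cox6a2, Cox6b2, Cox7a1 and Cox7a2l) beside Ndufa1, Ndufa6 and Uqcrh. In 7 members every Day 8 library was below both, where 16.0% of all genes were: Ndufs1, Sdhd, Uqcrc1, Uqcrc2, Cox7a2, Atp5f1 and Atp5g3. Uqcrc1, a core protein of complex III, had 62.8 and 62.5 CPM at Day 3 and 55.1, 41.4 and 41.9 CPM at Day 8 beside 43.7 and 55.8 CPM in saline. Its Day 8 to Day 3 difference was -0.41 ± 0.26 (limma adjusted p = 0.74).

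The restricted forms of complex IV subunits were measured at few counts. Their ubiquitous partners are given beside them, except Cox4i1 and Cox7b, whose values stand above. Cox4i2, a lung and pericyte form, had 2.32 and 0.74 CPM in saline, 0.39 and 0.60 CPM at Day 3 and 1.25, 1.22 and 0.91 CPM at Day 8. Cox7a1, a muscle and brown fat form, had 0.29 and 4.53 CPM in saline, 3.16 and 3.81 CPM at Day 3 and 3.96, 6.99 and 6.14 CPM at Day 8, and its partner Cox7a2 had 475.2 and 750.7, 915.9 and 941.03, and 853.4, 603.0 and 540.4 CPM. Cox7a1 was highest in Day 8 replicates 2 and 3, in which Cox7a2 was lower than in any Day 3 library. Its differences did not pass the test (1.41 ± 0.93 at Day 8, edgeR adjusted p = 0.96), only 2 counts were behind the value in saline replicate 1, and without that library the difference was 0.52. Cox6b2, a testis form, had 7.96 and 10.2 CPM in saline, 8.52 and 8.33 CPM at Day 3 and 10.4, 14.7 and 11.3 CPM at Day 8. Its partner Cox6b1 had 329.1 and 568.3 CPM in saline, 730.1 and 651.5 CPM at Day 3 and 731.4, 475.4 and 445.7 CPM at Day 8. Cox8b, another muscle form, had 1.74 and 0.21 CPM in saline, 2.39 and 1.304 CPM at Day 3 and 1.25, 2.27 and 2.62 CPM at Day 8, and its groups overlapped in CPM. On the quantile-normalized log2 scale its Day 3 libraries, at 4.80 and 3.99, lay above saline, at 3.85 and 1.28. Its partner Cox8a had 437.6 and 620.3 CPM in saline, 773.9 and 756.6 CPM at Day 3 and 886.1, 574.6 and 547.1 CPM at Day 8. Cox6a1, the partner of Cox6a2, had 410.6 and 474.9 CPM in saline, 545.3 and 504.3 CPM at Day 3 and 524.2, 457.2 and 355.1 CPM at Day 8. Cox7b2 was at 0 in all 7 libraries, which allows up to 0.434 CPM in the shallowest, and Cox8c was at 1 count in saline replicate 1, 7 counts in Day 8 replicate 1 and 0 in the other 4 count libraries, so neither was tested.

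Some members had far fewer counts in saline replicate 1 than in any other library. Among 77 members with at least 5 CPM in each of the other 6 libraries, 10 had in saline replicate 1 less than 50% of the lowest of them: Ndufa1, Ndufa4, Ndufb2, Ndufb3, Sdhc, Sdhd, Uqcrfs1, Cox7c, Atp5j and Atp5s. The same was so for 3.02% of all genes. Members are named here for this pattern, after their values were seen, and no test is given for it. Sdhd, which with Sdhc anchors complex II in the membrane (chr9:50596340-50603849), had 8 counts in saline replicate 1 and 978 in saline replicate 2, or 1.16 and 103.0 CPM, beside 74.1 and 109.9 CPM at Day 3 and 41.6, 35.8 and 72.2 CPM at Day 8. Sdhc had 53.7 and 175.1 CPM in saline and between 159.1 and 179.9 CPM in the other 5 libraries. Cox7c, a small subunit of complex IV whose 3′ end shares sequence with other genes, had 107.5 and 722.5 CPM in saline and between 635.1 and 802.8 CPM elsewhere, and Ndufa1, an X-linked subunit of complex I, had 53.3 and 262.8 CPM in saline and between 261.8 and 298.1 CPM elsewhere. In these 4 genes saline replicate 2 was close to the CXCL12-treated libraries or among them, and saline replicate 1 alone was low. Sdhb, the iron-sulphur subunit of complex II, was not among them, with 233.9 and 291.3 CPM in saline, 319.5 and 348.5 CPM at Day 3 and 320.8, 244.9 and 185.5 CPM at Day 8.

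Because reads come from the 3′ end, the deviation of saline replicate 1 was set beside features of the transcripts (GENCODE M21), a comparison chosen after the values were seen. The median difference of saline replicate 1 from the mean of the other 6 libraries was -0.53 (log2) over 82 members and 0.06 over 13622 genes. Over the 767 genes with transcripts of up to 1000 bases it was -0.46, and it was -0.52 for the 48 members of that length and -0.57 for the 34 longer members. Across the members, the difference had a Spearman rho of 0.41 with the share of G and C in the last 200 bases and 0.02 with length. Across all 13622 genes the same values were 0.08 and 0.31. Genes share the library and its depth, so these are descriptions, and whether base composition or length had a part in the low values was not tested.

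**Figure D4:**
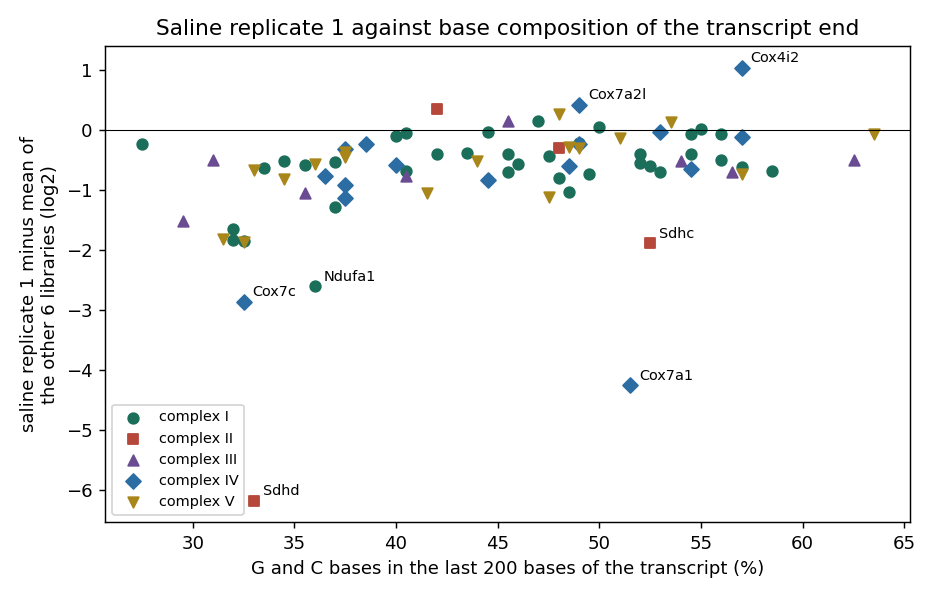
Log2 difference of saline replicate 1 from the mean of the other 6 libraries (vertical axis) against the percentage of G and C in the last 200 bases of the transcript (horizontal axis) for 82 members, with one symbol for each complex. Sdhd lies lowest at -6.18, Cox7a1 at -4.25 and Cox7c at -2.86, while Cox4i2 lies highest and Cox7a2l stands at 0.43.

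The genes that assemble, feed or control the chain were compared as lists, with no test of a list. At Day 3 against saline the median log2 difference was 0.39 for 47 assembly factors, 0.43 for 17 electron carriers and other chain proteins (a list that also holds Cox7a2l), 0.36 for 16 genes of the tricarboxylic acid cycle and 0.45 for 77 mitochondrial ribosomal proteins, beside 0.43 for the members. Without saline replicate 1 these Day 3 medians were 0.16, 0.075, 0.036 and 0.20, beside 0.19 for the members. At Day 8 against saline the same medians were 0.08, 0.29, 0.09 and 0.19, beside 0.44 for the members. Of these lists, in either comparison, the genes past the limits of 2-fold and P 0.05 were Etfdh, which passes electrons to ubiquinone (1.03 ± 0.43), and Mrpl27, a protein of the large mitochondrial ribosomal subunit (1.14 ± 0.48), both higher at Day 3 at a limma adjusted p of 0.62 and both named after their values were seen. They stood at 0.42 and 0.32 without saline replicate 1. Without both libraries that stood apart, the Day 8 medians were -0.13, -0.30, -0.29 and -0.29, beside -0.09 for the members. The genes of smallest P at Day 8 were, beside Cox7a2l (0.63 ± 0.29) in the list of carriers, Uqcc3 (0.68 ± 0.31), an assembly factor of complex III, Idh3b (0.58 ± 0.37) and Mrpl33 (0.61 ± 0.38), each at an edgeR adjusted p of 0.96. Without saline replicate 1 the last 3 were 0.39, 0.15 and 0.21.

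Cytosolic ribosomal proteins, which are also short and abundant transcripts, differed more at Day 8. All 79 tested had a Day 8 difference above 0, with a median of 0.85, and 19 passed the limits of 2-fold and P 0.05, whereas 1.53% of all genes passed in that direction and 1 of 82 members did. They took 8.37% and 9.13% of the counts in saline, 11.1% and 11.0% at Day 3 and 15.2%, 11.8% and 12.6% at Day 8, so every CXCL12-treated library was above both controls. Rpl9, of the smallest P, had a difference of 1.04 ± 0.29 (edgeR adjusted p = 0.96). Without both libraries that stood apart the median was 0.57.

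Regulators of the chain were followed in 13 matched genes, and their median was -0.27 at Day 8 and 0.29 at Day 3, both against saline. Without saline replicate 1 the Day 3 median turned to -0.15, and that of Day 8 was -0.29. Ppargc1b, a coactivator of mitochondrial genes, had 8.97 and 7.16 CPM in saline, 6.99 and 8.83 CPM at Day 3 and 4.58, 3.90 and 3.12 CPM at Day 8. The 3 Day 8 libraries were the lowest for it, with a Day 8 to Day 3 difference of -1.10 ± 0.37 (limma unadjusted P = 0.0178, adjusted p = 0.69). With all libraries kept it was the one regulator past a fold change of 2. Tfb2m, a transcription factor of the mitochondrial genome, had 27.9 and 33.2 CPM in saline, 42.4 and 40.7 CPM at Day 3 and 30.9, 24.9 and 30.2 CPM at Day 8. Its Day 3 difference was 0.68 ± 0.27 (limma unadjusted P = 0.0354, adjusted p = 0.62), and 0.53 without saline replicate 1. Ppargc1a, the paralogue of Ppargc1b, had 16.6 and 11.6 CPM in saline, 8.04 and 10.03 CPM at Day 3 and 18.3, 3.49 and 5.13 CPM at Day 8. Day 8 replicate 1 was its highest library and the other Day 8 libraries its lowest. Its Day 8 difference from saline was -0.34 ± 0.73 (edgeR adjusted p = 0.97), against -1.48 without Day 8 replicate 1 (edgeR unadjusted P = 0.0118) and -0.13 without saline replicate 1, and its difference from Day 3 was -0.48, against -1.25 without Day 8 replicate 1 (limma unadjusted P = 0.0136). For the factors whose words were searched in the promoters, the Day 8 difference was -0.27 ± 0.29 for Nrf1, 0.13 ± 0.41 for Gabpa, 0.35 ± 0.27 for Esrra and -0.43 ± 0.25 for Yy1, each at an edgeR adjusted p between 0.956 and 0.979. Without saline replicate 1 they were -0.42, -0.29, 0.15 and -0.51, and that of Gabpa was 0.23 without Day 8 replicate 1. Day 8 differences of Tfam, Tfb1m, Gabpb1, Polrmt, Polg and Pprc1 lay between -0.40 and 0.44, none of them passed the test, and without saline replicate 1 they lay between -0.65 and -0.04. Pprc1, another coactivator of this family, stood at -0.40, at -0.90 without Day 8 replicate 1 and at -1.15 without both libraries that stood apart (edgeR unadjusted P = 0.0221), where Ppargc1a stood at -1.27 (edgeR unadjusted P = 0.0265).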

How the data were processed

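QuantSeq 3′ libraries of mouse uterine tissue were analysed (2 saline, 2 Day 3 and 3 Day 8). Alignment by the authors was with Bowtie2, and Bedtools coverage gave counts that include reads with several alignments. The submitters' processing notes list edgeR and the builds mm10 and hg19, with no versions. For 6 libraries the authors deposited unnormalized read counts. Day 3 replicate 1 was deposited on a log2 scale after normalization by the authors. Undoing the log2 and a factor of 1.05 brought 98.2% of 2914 low values within 0.1 of a whole number, where chance gives 20%. CPM of this library was taken from these back-transformed values. Because multiple alignments were counted, reads of members and of near-identical copies can be mixed. In 7 members at least 50% of the 50-base words in the last 300 bases occur in another gene (Ndufs3, Ndufs5, Cox5a, Atp5l, Cox7c, Ndufb6 and Uqcrc2), and their values are uncertain in this respect.

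Day 8 and saline were compared in edgeR 4.0.16 (quasi-likelihood test, TMM, filterByExpr) on the 6 count libraries, with 3 groups in one fit, 3 residual degrees of freedom and 15388 genes tested. Day 3 was compared with saline and Day 8 by limma 3.58.1 (trend) on log2(normalized count + 1), quantile-normalized over 7 libraries, with 4 residual degrees of freedom and 14850 genes with at least 10 normalized counts in at least 2 libraries. A fold change on this scale understates the change of low genes. P-values were adjusted over all genes tested, by Benjamini-Hochberg. Calls needed at least a 2-fold change with P below 0.05 before adjustment, or an adjusted p below 0.1. The fits were run on simulated counts with known changes and no library standing apart. That setting differs from these data, so it checked the code alone. R 4.3.3 and DESeq2 1.42.0 were used. TMM factors were 1.17 and 1.08 in saline and 0.88 to 0.98 at Day 8. The biological coefficient of variation was 42.2%. A floor of 3 counts corresponds to 0.244 to 0.434 CPM, for counting error alone.

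Members and lists were chosen with earlier results of these data known. The rule for named members took those past 2-fold and P 0.05, the smallest P and the highest mean CPM in each complex, and the isoform pairs. Outside the members it took all regulators and the gene of smallest P at Day 8 in each list. Alternatives were another normalization, tool, filter or pseudocount, a replicate block, Day 8 replicate 1 counted with Day 3, and leaving out each library. Library totals alone, and leaving out saline replicate 1 with Day 8 replicate 1, were added after the data were seen.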

Additional observations from a re-analysis of the deposited data

Results flagged for a closer look

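Of 106 genes and lists examined, 2 members stood on opposite sides of the saline mean at Day 3 and at Day 8 in every library, on the quantile-normalized log2 scale. The share of all genes with this pattern is not given here, so the 2 say nothing about the members as a set. For Cox7a2l the Day 3 mean was lower than the saline mean by a difference of -0.50 and the Day 8 mean higher by 0.32, so that Day 8 exceeded Day 3 by 0.82. Without saline replicate 1 the Day 3 difference was -0.14. Its values were 12.50 and 11.77 in saline, 11.69 and 11.58 at Day 3 and 12.28, 12.45 and 12.62 at Day 8. For Atp5g3 the Day 3 mean differed from saline by 0.05 and the Day 8 mean by -0.14, a difference of -0.20 between Day 8 and Day 3. In the edgeR fit on counts its Day 8 difference from saline was instead above 0, at 0.24, and without saline replicate 1 both differences were below 0, at -0.49 for Day 3 (limma) and -0.24 for Day 8 (edgeR). Its values were 12.91 and 13.98 in saline, 13.53 and 13.47 at Day 3 and 13.43, 13.43 and 13.04 at Day 8, all inside the gap between the saline-treated libraries. The saline-treated libraries are shared by both differences, and their opposite signs were not tested.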

How the results depend on the processing

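No single member that passed P 0.05 changed sign, whereas several medians turned negative, as given below. Day 8 against saline gave 49 genes at the adjusted p with DESeq2, 58 with Day 8 replicate 1 counted with Day 3 and 1228 without both libraries that stood apart. Genes past fold change and P were 453, against 1094 and 1413 in the last 2 settings. Members past both were 1, against 3 by limma on quantile-normalized values and 0 with at least 10 counts in every library or by library totals alone. The shares of all genes in these settings are not given here, so these counts say nothing about the members as a set. With Day 8 replicate 1 counted with Day 3 the complex V median was 0.0878. Without both libraries the medians were -0.0865 for all members and -0.0768, -0.20, -0.24, 0.0340 and -0.12 for complexes I to V. By library totals alone that of complex II was -0.0686.

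Day 3 against saline gave 1043 genes past fold change and P and 0 members without quantile normalization, 0 members by edgeR on estimated counts, and 36 genes at the adjusted p without a filter. With Day 8 replicate 1 counted with Day 3 it gave 4 members. The share of all genes in that setting is not given here, so the 4 say nothing about the members as a set. Without both libraries it gave 428 genes, 9 at the adjusted p, and medians of 0.19 for all members and 0.17, 0.0242, 0.22 and 0.0999 for complexes I to IV.

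Day 8 against Day 3 gave 28 genes at the adjusted p without a filter. With Day 8 replicate 1 counted with Day 3 it gave 1799 genes past fold change and P, 1392 at the adjusted p, 2 members, and medians of -0.32, -0.32, -0.58 and -0.24 for complexes I to IV. Without both libraries these were 1942, 4492 and 2, with -0.29, -0.52 and -0.24 for complexes II to IV. The causes of these changes were not tested.

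With the replicate number as a block, Day 8 against saline gave 157 genes, 0 members and a complex II median of 0.71, Day 3 against saline gave 0 members, and Day 8 against Day 3 gave 426 genes. Deviations of same-numbered libraries from their group means correlated between -0.17 and -0.01. The groups were small and some libraries stood apart, so these values cannot tell whether same-numbered libraries shared an animal.

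Leaving out each library in turn, the lone library of a group being assumed to vary like the others, gave the following ranges. Day 8 against saline had 229 to 1527 genes past fold change and P, 0 to 15 at the adjusted p and 0 to 17 members. Medians ranged from 0.14 to 0.69 for all members and, for complexes I to V, 0.14 to 0.68, 0.0172 to 1.19, -0.0133 to 0.76, 0.32 to 0.87 and 0.0886 to 0.69. Day 3 against saline had 224 to 2824 genes, 0 to 2350 at the adjusted p (2350 without saline replicate 2) and 0 to 20 members, with medians of 0.19 to 0.63 for all members and, for complexes I to V, 0.18 to 0.62, 0.0262 to 1.19, 0.21 to 0.79, 0.0908 to 0.54 and 0.23 to 0.60. Day 8 against Day 3 had 276 to 1670 genes, 0 to 484 at the adjusted p (484 without Day 8 replicate 1) and 0 to 2 members, with medians of -0.29 to -0.01 for all members and, for complexes I to V, -0.26 to 0.05, -0.29 to -0.0406, -0.51 to -0.14, -0.19 to -0.02 and -0.32 to -0.07. For 15 results of single members, the member of smallest P in each complex in each comparison, 173 values under the alternatives kept their side of P 0.05, 26 lost it and 25 gained it.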
